A study of Mus musculus with 6 samples.

Results

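The genes described here are 9 of the 23194 genes in the deposited table: the Hedgehog ligand Shh, its receptor Ptch1, the transducer Smo, the transcription factors Gli1, Gli2 and Gli3, the ligand-binding inhibitor Hhip, the ligand-releasing protein Scube2 and the forkhead factor Foxf1. They were found by symbol, 1 row each. They were chosen with the difference between injured and naive lungs in these libraries already known. That difference is therefore given for them as a description, with no p-value.

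The lungs came from adult mice of the C57BL/6 strain with a wild type genotype, and RNA of the whole left lung was sequenced. Of 6 libraries, 3 came from naive control mice and 3 from mice whose left pulmonary artery had been tied for 4 h and then reperfused for 24 h, here called injured lungs. The naive mice are not described as operated on, so the operation and the ischemia cannot be told apart. No source used here gives the sex of the mice or says how the replicates were kept apart, so the spread between replicates may include technical as well as animal variation. Total counts ran from 18913487 to 34986276 in naive and from 20062818 to 23638078 in injured libraries. Lung identity was clear from Scgb1a1 of club cells and Sftpc of alveolar type 2 cells, which averaged 23135 and 15756 CPM in naive lungs. CPM are counts scaled to a common library size.

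Hedgehog ligands are secreted, lipid-modified proteins. Without ligand, Ptch1 holds Smo inactive. Ligand binding to Ptch1 frees Smo to act in the primary cilium, and Gli proteins then change the transcription of target genes, among them Gli1, Ptch1 and Hhip themselves. In the lung, epithelial cells make Shh and mesenchymal cells respond to it. Foxf1 is a transcription factor of lung mesenchyme and capillary endothelium and a known Hedgehog target in the developing lung.

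All 9 genes passed the filter on low counts. Their levels per gene length, as the authors' deposited FPKM (counts scaled for gene length and library size), ran from 1.12 to 161 in the naive means. Foxf1 was highest at 161 ± 6.72 FPKM (SD, n = 3), followed by Ptch1 at 21.2 ± 5.42, Scube2 at 20.3 ± 5.41, Smo at 14.4 ± 0.751 and Hhip at 10.7 ± 1.53 FPKM (SD, n = 3 each). The ligand Shh stood at 2.41 ± 0.238 FPKM, and Gli1, Gli2 and Gli3 at 1.93 ± 0.595, 1.28 ± 0.101 and 1.12 ± 0.256 FPKM (SD, n = 3 each). Neighbours in this order with overlapping naive ranges were Ptch1 and Scube2, Shh and Gli1, and Gli2 and Gli3. In injured lungs the order differed in that Scube2 stood in place 5 rather than 3, below Smo and Hhip, and Gli3 stood above Gli2. Their FPKM there were 97.3 ± 19.4 for Foxf1, 18.9 ± 3.28 for Ptch1, 12.0 ± 0.440 for Smo, 9.21 ± 0.0728 for Hhip and 7.55 ± 0.957 for Scube2 (SD, n = 3 each). Shh, Gli1, Gli3 and Gli2 stood at 2.27 ± 0.133, 1.26 ± 0.129, 1.01 ± 0.200 and 0.889 ± 0.104 FPKM (SD, n = 3 each). In injured lungs the ranges of Gli1 and Gli3, and of Gli3 and Gli2, overlapped.

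**Figure D1:**
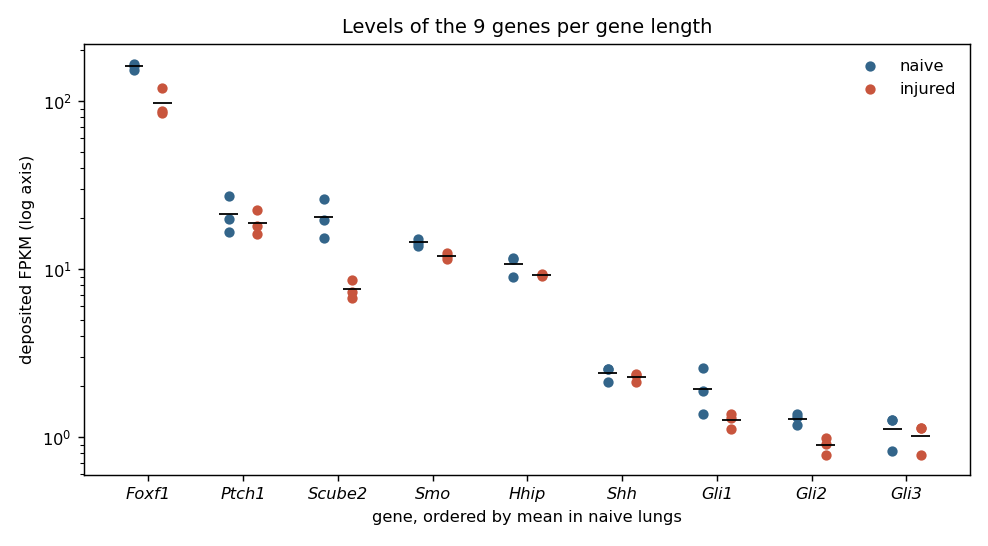
Deposited FPKM of the 9 genes (vertical log axis) in each naive (blue) and injured (red) lung, ordered by the mean in naive lungs, with horizontal lines at group means. Scube2 lies beside Ptch1 in naive lungs, at 20.3 and 21.2 FPKM, and below Hhip in injured lungs, at 7.55 against 9.21 FPKM.

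Scube2, a secreted protein of the CUB and EGF-like domain family that helps release lipid-modified Hedgehog ligand from the cells that make it, showed the largest difference of the 9. The gene lies on chromosome 7 (ENSMUSG00000007279, mm10, 109798676 to 109865679, minus strand, protein-coding). It had 69.5, 54.7 and 95.2 CPM in naive replicates 1, 2 and 3, from 2068, 1034 and 3254 counts. In injured replicates 1, 2 and 3 it had 30.6, 23.9 and 26.0 CPM, from 616, 539 and 617 counts. Every injured lung lay below every naive lung, and the naive lungs spread more widely than the injured ones. The group means were 73.1 ± 20.5 and 26.8 ± 3.41 CPM (SD, n = 3 each), a log2 fold change of injured over naive of -1.45 ± 0.20 (SE, edgeR) or 2.73-fold lower. The authors' deposited table gives -1.22 for this gene, while DESeq2 run here on the same counts gave -1.46. How the deposited value was estimated is not given, so it may not be on the same scale.

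The 250 bases upstream of the Scube2 start site are shown because Scube2 differs most, and those of Ptch1 and Gli2 because Ptch1 is the classical Hedgehog target in the group and Gli2 is the member whose window holds a GLI-like motif. Sequences are from RefSeq (GRCm38.p6), on the gene's strand, and end at the base before the annotated start. Capitals mark the GC box GGGCGG and the GLI core ACCACCC on either strand. The windows are chr7:109865680-109865929 for Scube2, chr13:63565736-63565985 for Ptch1 and chr1:119053620-119053869 for Gli2, all on the minus strand.
Scube2: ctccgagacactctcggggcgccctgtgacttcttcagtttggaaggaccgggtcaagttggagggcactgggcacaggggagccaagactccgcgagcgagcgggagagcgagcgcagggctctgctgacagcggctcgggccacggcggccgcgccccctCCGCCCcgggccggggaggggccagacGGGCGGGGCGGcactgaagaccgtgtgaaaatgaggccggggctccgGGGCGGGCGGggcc
Ptch1: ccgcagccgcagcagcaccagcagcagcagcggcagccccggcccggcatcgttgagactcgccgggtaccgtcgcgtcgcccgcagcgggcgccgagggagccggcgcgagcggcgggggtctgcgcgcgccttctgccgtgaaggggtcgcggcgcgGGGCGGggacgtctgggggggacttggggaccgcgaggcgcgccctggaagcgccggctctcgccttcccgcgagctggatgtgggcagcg
Gli2: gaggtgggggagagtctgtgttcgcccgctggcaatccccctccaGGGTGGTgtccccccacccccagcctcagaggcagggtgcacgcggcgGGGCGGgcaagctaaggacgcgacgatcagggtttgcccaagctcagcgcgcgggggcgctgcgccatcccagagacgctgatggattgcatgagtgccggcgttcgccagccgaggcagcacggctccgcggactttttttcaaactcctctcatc

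RefSeq promoter windows, which run from 250 bases before to 50 bases after a start site, were matched for 6 of the 9 genes: Ptch1, Smo, Gli2, Gli3, Hhip and Scube2. The RefSeq start of Scube2 and of Gli2 is the first base of the gene in the deposited table, whereas that of Ptch1 lies 215 bases further upstream. None of the 6 windows held the GLI consensus GACCACCCA on either strand, which 0.253% of 32851 windows of the same length hold. The shorter GLI core ACCACCC, which is part of that consensus, was found only in the window of Gli2, at -205 from the start, and is held by 4.61% of all windows. The forkhead motif GTAAACA was in none of the 6 windows and in 3.65% of all. The GC box was found 5 times in the window of Scube2, counting overlapping matches, 2 times each in those of Gli3 and Hhip and once in those of Ptch1 and Gli2; 35.7% of all windows hold it. The Scube2 window was 75.3% G and C, against a median of 52.7% over all windows, and that of Ptch1 76.3%. These letters describe the windows and say nothing of what binds there.

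Foxf1 was the most abundant of the 9 genes and showed the second largest difference. It lies on chromosome 8 (ENSMUSG00000042812, mm10, 121084386 to 121088144, plus strand, protein-coding). Naive replicates 1, 2 and 3 had 401, 371 and 398 CPM, and injured replicates 1, 2 and 3 had 288, 209 and 205 CPM. The groups did not overlap, and injured replicate 1 lay closer to the naive lungs than the other two injured lungs did. The means were 390.3 ± 16.4 and 234 ± 46.6 CPM (SD, n = 3 each), with a log2 fold change of -0.74 ± 0.13 (SE, edgeR). The authors' deposited table gives -0.67, with the same limit, and DESeq2 run here gave -0.74.

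Upstream of the Gli factors, Smo was slightly lower in injured lungs and Shh overlapped between groups. Smo, the membrane protein that carries the signal into the cell, lies on chromosome 6 (ENSMUSG00000001761, mm10, 29735694 to 29761365, plus strand). It had 51.4, 54.2 and 58.7 CPM in naive replicates 1 to 3 and 45.2, 46.6 and 43.5 CPM in injured replicates 1 to 3. All injured values lay below all naive values, by a small amount, with a log2 fold change of -0.28 ± 0.089 (SE, edgeR). Shh, the ligand, lies on chromosome 5 (ENSMUSG00000002633, mm10, 28456815 to 28467101, minus strand) and gave 6.79, 6.88 and 5.88 CPM in naive against 6.25, 6.34 and 5.70 CPM in injured replicates 1 to 3. The groups overlapped, and the log2 fold change of -0.09 ± 0.17 (SE, edgeR) was smaller than its error. Shh rests on 126 to 202 counts per library.

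The Gli transcription factors were the least abundant of the 9 per gene length. Gli2, the main activator of the pathway, lies on chromosome 1 (ENSMUSG00000048402, mm10, 118834132 to 119053619, minus strand). It had 7.73, 9.10 and 8.87 CPM in naive and 6.50, 5.98 and 5.15 CPM in injured replicates 1 to 3. The groups were apart, with a log2 fold change of -0.54 ± 0.17 (SE, edgeR). Gli1, an activator whose own transcription is a readout of pathway activity, lies on chromosome 10 (ENSMUSG00000025407, mm10, 127329889 to 127341589, minus strand). It had 9.31, 5.02 and 7.02 CPM in naive and 5.01, 4.70 and 4.09 CPM in injured replicates 1 to 3. Naive replicate 2, with 95 counts, stood level with injured replicate 1, with 101 counts. By CPM the groups just missed each other, while by deposited FPKM they overlapped. The log2 fold change of Gli1 was -0.64 ± 0.24 (SE, edgeR). Gli3, which acts mostly as the repressor of the pathway, lies on chromosome 13 (ENSMUSG00000021318, mm10, 15463235 to 15730026, plus strand). It had 10.3, 10.4 and 6.88 CPM in naive and 6.35, 9.17 and 9.15 CPM in injured replicates 1 to 3. Here the groups overlapped, with 1 low lung in each, and the log2 fold change was -0.15 ± 0.22 (SE, edgeR).

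Ptch1 and Hhip both bind Hedgehog ligand, are induced by the pathway and limit it, and both had overlapping groups. Ptch1 lies on chromosome 13 (ENSMUSG00000021466, mm10, 63511533 to 63565520, minus strand). It had 116, 85.6 and 72.9 CPM in naive and 77.0, 96.3 and 69.3 CPM in injured replicates 1 to 3. Its spread within each group was larger than the difference of the means, with a log2 fold change of -0.18 ± 0.19 (SE, edgeR). Hhip lies on chromosome 8 (ENSMUSG00000064325, mm10, 79966115 to 80058006, minus strand). It had 52.8, 52.7 and 41.7 CPM in naive and 42.3, 41.6 and 42.1 CPM in injured replicates 1 to 3. Naive replicate 3 lay among the injured lungs, and the log2 fold change was -0.22 ± 0.11 (SE, edgeR).

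**Figure D2:**
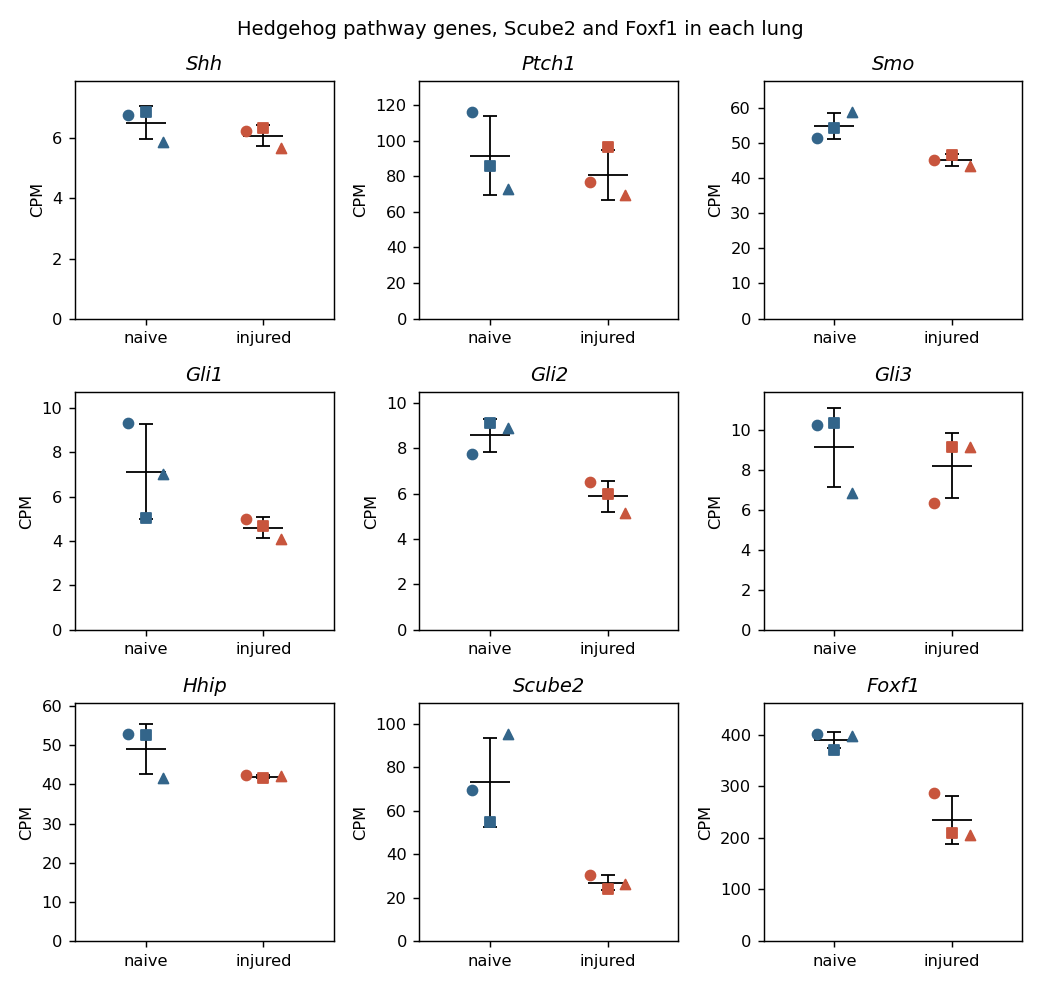
Each panel plots 1 gene in CPM (vertical axis from 0) for 3 naive (blue) and 3 injured (red) lungs; circles, squares and triangles are replicates 1, 2 and 3, and black bars give mean ± SD. The groups are wide apart for Scube2 (73.1 and 26.8 CPM) and Foxf1 (390.3 and 234 CPM), and they overlap for Shh, Ptch1, Gli3 and Hhip.

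The log2 fold changes of all 9 genes were below 0, with a median of -0.28, whereas 50.2% of the 15486 genes tested lay below 0 and the median over them was -0.00096. The CPM ranges of the groups were apart, with injured lungs lower, for 5 of the 9, Scube2, Foxf1, Smo, Gli2 and, barely, Gli1. This was so for 10.6% of all genes tested. With edgeR's test across all genes, 2 of the 9, Scube2 and Foxf1, were called lower at an adjusted p under 0.05, a call made for 0.956% of all genes tested. Because the genes were chosen on this contrast, nothing is read from these counts. Without naive replicate 1, naive replicate 2 or injured replicate 2, the count was 1 of 9, Scube2 alone.

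Leaving out 1 library at a time moved the log2 fold change of Scube2 between -1.62 and -1.22 and that of Foxf1 between -0.91 and -0.65. That of Gli1 ran from -0.83 without naive replicate 2 to -0.40 without naive replicate 1, so that 1 naive lung moved it by more than 1.5 times. Ptch1 ran from -0.33 to 0.02, the latter without naive replicate 1, and Gli3 from -0.33 to 0.0051, the latter without injured replicate 1. The sign of these values therefore rested on 1 library each. The ranges were -0.62 to -0.46 for Gli2, -0.33 to -0.23 for Smo, -0.33 to -0.17 for Hhip and -0.17 to -0.05 for Shh.

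**Figure D3:**
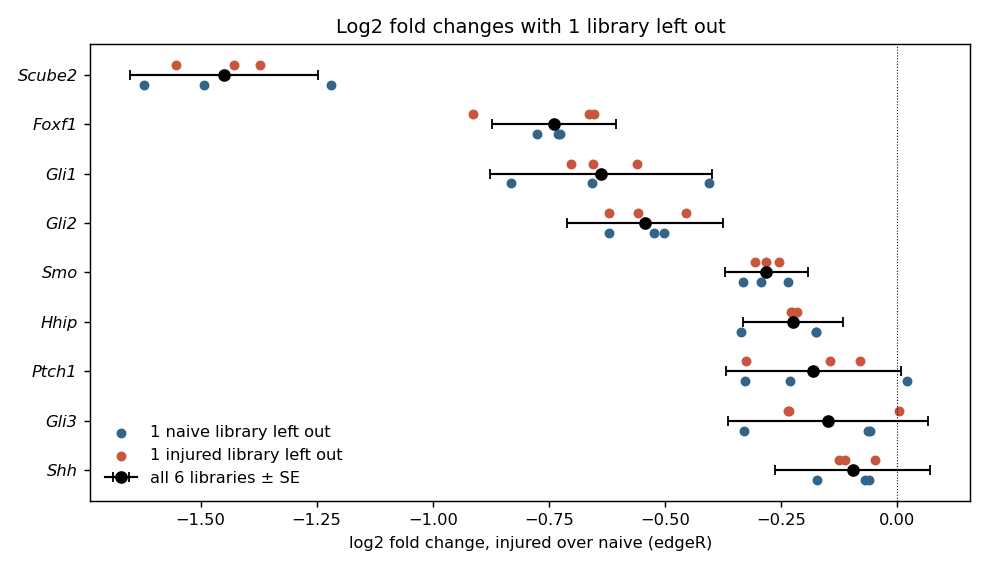
Log2 ratio of injured to naive lungs (horizontal axis, edgeR) for each of the 9 genes; black points and bars give the value with all 6 libraries ± SE, blue points the values without 1 naive library and red points those without 1 injured library. Scube2 stays between -1.62 and -1.22, while points of Ptch1 and Gli3 reach 0.02 and 0.0051.

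Some exons of the 9 genes overlap exons of other genes on the opposite strand in GENCODE M21, and no source used here gives the strand setting of the counting. Exons of Shh share 446 bases with 9530036O11Rik and 361 with Gm26894, which hold 378 and 167 counts over the 6 libraries. Exons of Gli1 share 62 bases with Arhgap9, which holds 3239 counts, and those of Gli3 share 188 bases with Gm6556, which holds 16. Exons of Gli1 also share 265 bases with Gm47200, those of Hhip 175 with Gm27820 and those of Foxf1 98 with Gm27530, which are not analysed here. For Scube2, Ptch1, Smo and Gli2 no such overlap was found.

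The wider pathway was examined through 62 further genes listed by role, of which 61 passed the filter on low counts. Of these, 1 rose and 2 fell by edgeR's test at an adjusted p under 0.05, and 58 did not pass it. Over all genes tested, 2.16% were called higher and 0.956% lower by edgeR, while 6.47% were called in either direction by DESeq2 and 2.76% by limma-voom. An unadjusted edgeR p under 0.05 was reached by 16.7% of all genes tested and by 16 of the 61. The median log2 fold change of the 61 was -0.07, with 45 below 0 and 16 above. Over all genes tested, 50.2% lay below 0. The list is what was left of the pathway after the 9 had been chosen, so it is not an independent sample of it.

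Of the genes for ligands and their release, 0 of 6 tested were called by edgeR, DESeq2 or limma-voom, and 1 had an unadjusted edgeR p under 0.05. Scube1, a relative of Scube2, had 44.2, 49.2 and 40.4 CPM in naive and 61.0, 55.1 and 46.3 CPM in injured replicates 1 to 3. Its groups overlapped and its log2 fold change of 0.28 ± 0.12 had the opposite sign to that of Scube2 (edgeR adjusted p = 0.281). The third family member, Scube3, gave -0.37 ± 0.24 (edgeR adjusted p = 0.5). Disp2, a relative of the transporter that exports Hedgehog ligand, varied widely within both groups, from 19.7 to 52.7 CPM in naive and from 12.8 to 42.5 CPM in injured lungs. Of the other ligands, Dhh had a log2 fold change of 0.13 ± 0.24, and Ihh, with 1 to 14 counts per library, was removed by the filter. Scube3, Dhh and Ihh were named after their values were seen.

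Of 6 tested genes for reception of the ligand, 1 fell, and 2 had an unadjusted edgeR p under 0.05. Gpc3, a glypican that competes with Ptch1 for Hedgehog ligand, had 228, 280 and 287 CPM in naive and 148, 166 and 104 CPM in injured replicates 1 to 3. All injured lungs lay below all naive lungs (log2 fold -0.93 ± 0.17, edgeR adjusted p = 0.0284). Leaving out naive replicate 2, naive replicate 3 or injured replicate 1 ended the call, with an edgeR adjusted p of 0.0924 to 0.111. The co-receptor Boc had a log2 fold change of -0.36 ± 0.10 with groups apart and missed the threshold (edgeR adjusted p = 0.0868), though DESeq2 called it. The co-receptors Cdon and Gas1 gave -0.07 ± 0.13 and -0.23 ± 0.13. Boc, Cdon and Gas1 were named after their values were seen.

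Of 32 tested genes for transduction inside the cell, edgeR called 0, limma-voom 0 and DESeq2 1, and 4 had an unadjusted edgeR p under 0.05. Their median log2 fold change was -0.06. The most abundant were Prkar1a, a regulatory subunit of protein kinase A, at -0.12 ± 0.11, and Spop, a ubiquitin ligase adaptor for Gli proteins, at -0.06 ± 0.083. The gene called by DESeq2 was Arrb2, a beta-arrestin with roles in many receptor pathways, which rose there. By edgeR it gave 0.50 ± 0.13 (adjusted p = 0.0736), and edgeR with no filter on low counts called it higher. Sufu, the main inhibitor of Gli proteins, had a log2 fold change of -0.03 ± 0.10. Arrb2 and Sufu were named after their values were seen.

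Among 17 tested genes listed as Hedgehog targets in various tissues, 1 rose and 1 fell by edgeR. An unadjusted edgeR p under 0.05 was reached by 9 of the 17, and by 16.7% of all genes tested. Sfrp1, a secreted inhibitor of Wnt signalling, had 20.6, 22.7 and 21.9 CPM in naive and 46.1, 52.5 and 76.9 CPM in injured replicates 1 to 3. It rose in all 3 injured lungs (log2 fold 1.43 ± 0.18, edgeR adjusted p = 0.00584) and kept its call whichever single library was left out. Ccnd1, which encodes the G1 cyclin D1, fell from 169, 205 and 225 CPM in naive to 138, 139.9 and 126 CPM in injured replicates 1 to 3 (log2 fold -0.57 ± 0.11, edgeR adjusted p = 0.0278). Its call was kept only without naive replicate 1, and adjusted p was 0.0508 to 0.117 without each of the other libraries. Both genes are also targets of other pathways. DESeq2, and edgeR with no filter on low counts, called 2 higher and 2 lower, the others being Ccne1, the gene of cyclin E1, at 1.24 ± 0.32 (edgeR adjusted p = 0.0729) and Bcl2, an inhibitor of apoptosis, at -0.50 ± 0.12 (edgeR adjusted p = 0.058). Without naive replicate 3, edgeR called 2 higher, Sfrp1 and Osr1, a transcription factor gene. Ccne1, Bcl2 and Osr1 were named after their values were seen. Foxf2, the close relative of Foxf1, had a log2 fold change of -0.19 ± 0.15 (edgeR adjusted p = 0.595), and was named after its value was seen.

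Of 24 tested genes for transport and gating in the primary cilium, where Smo and Gli proteins act, 0 were called by edgeR, DESeq2 or limma-voom and 0 had an unadjusted edgeR p under 0.05. Log2 fold changes ran from -0.17 to 0.14. The most abundant were Kif3b, a kinesin subunit, at -0.13 ± 0.085, and Ift172, an intraflagellar transport protein, at 0.00090 ± 0.11. Ciliated airway cells also express these genes.

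**Figure D4:**
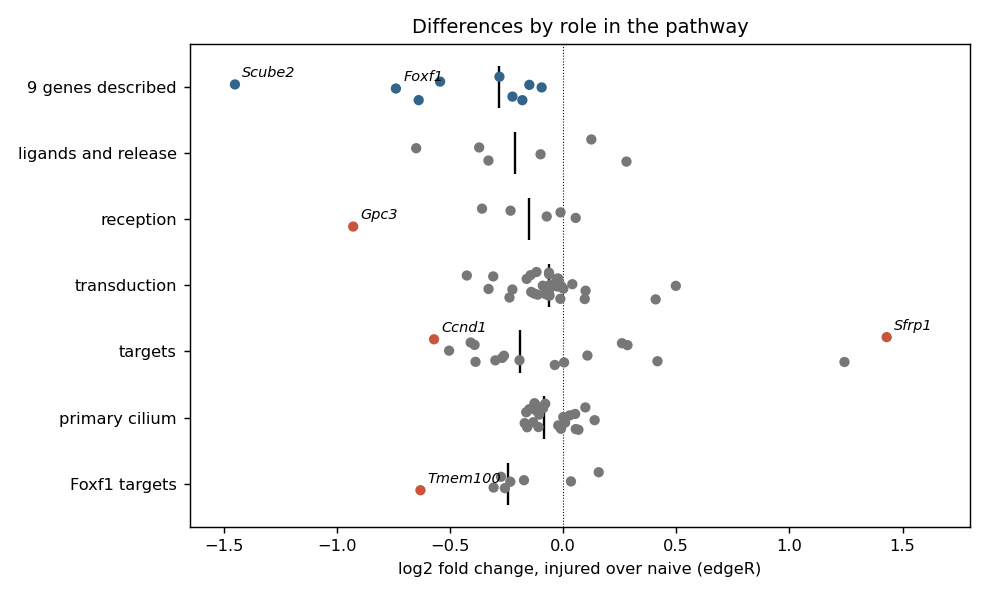
Log2 ratio of injured to naive lungs (horizontal axis, edgeR) for the 9 genes (blue) and for genes listed by role (grey, or red where called at an adjusted p under 0.05); vertical strokes are medians. Scube2 lies at -1.45, Gpc3 at -0.93 and Sfrp1 at 1.43, while the genes of the primary cilium lie between -0.17 and 0.14.

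Around Foxf1, the long non-coding RNA gene Fendrr begins 1276 bases upstream of the Foxf1 start and is read in the opposite direction (chromosome 8, mm10, 121054882 to 121083110, minus strand). Fendrr had 55.6, 42.2 and 54.3 CPM in naive and 35.4, 28.9 and 15.7 CPM in injured replicates 1 to 3. All injured lungs were below all naive lungs, and the log2 fold change of -0.93 ± 0.29 missed the threshold (edgeR adjusted p = 0.181, DESeq2 adjusted p = 0.00438). Foxf1 had 7.22, 8.80 and 7.34 counts for each Fendrr count in naive replicates 1 to 3, and 8.13, 7.23 and 13.0 in injured replicates 1 to 3, so that only injured replicate 3 stood apart. Of the 5 listed neighbours, edgeR and limma-voom called 0 and DESeq2 1, Fendrr, with 1 at an unadjusted edgeR p under 0.05. Irf8, a myeloid transcription factor gene further off on the same chromosome, gave -0.11 ± 0.084 (edgeR adjusted p = 0.6).

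Of 8 tested genes reported as Foxf1 targets in lung endothelium, 1 fell. Log2 fold changes were below 0 for 6 of the 8 and above 0 for 2, with a median of -0.25. Of all genes tested, 0.956% were called lower by edgeR and 50.2% lay below 0. The summed level of the 8 ran from 3812 to 3880 CPM in naive and from 2893 to 3679 CPM in injured lungs. Tmem100, a membrane protein of endothelial cells, had 612, 627 and 662 CPM in naive and 470.0, 391 and 367 CPM in injured replicates 1 to 3 (log2 fold -0.63 ± 0.11, edgeR adjusted p = 0.0161). All injured lungs lay below all naive ones, and injured replicate 1 was the highest of its group. Among the members, injured replicate 1 was also the highest injured lung for Foxf1, Scube2, Gli1, Gli2 and Hhip. It was not the highest for Shh, Ptch1, Smo or Gli3. Tmem100 was not called without naive replicate 2 (adjusted p = 0.0693, edgeR) or injured replicate 2 (adjusted p = 0.0603, edgeR). The vascular growth factor receptor genes Kdr and Flt1 gave -0.27 ± 0.15 and 0.03 ± 0.099, and were named after their values were seen.

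In whole tissue, fewer cells of a type and less RNA per cell cannot be told apart. Of 14 fibroblast markers tested, 2 fell and 0 rose, with a median of -0.06, and their summed level ran from 3150 to 6290 CPM in naive and from 3455 to 5200 CPM in injured lungs. Npnt, a matrix protein also made by alveolar epithelium, fell with a log2 fold change of -0.83 ± 0.16 (edgeR adjusted p = 0.0253), and Col14a1, a collagen of adventitial fibroblasts, with -0.60 ± 0.13 (edgeR adjusted p = 0.0399). Leaving out naive replicate 2 or any single injured lung ended the call of Npnt (highest edgeR adjusted p = 0.119). The call of Col14a1 stood only when naive replicate 1 was the lung left out (highest edgeR adjusted p = 0.159), and limma-voom did not make it. Of 12 smooth muscle and pericyte markers, 1 fell, Actg2, an enteric-type actin (log2 fold -0.82 ± 0.13, edgeR adjusted p = 0.0119). Leaving out naive replicate 2 or injured replicate 1 ended this call (highest edgeR adjusted p = 0.0586). The count was 3 without injured replicate 3, with Acta2 and Tagln of the contractile apparatus, and 2 without naive replicate 1 or by DESeq2, with the calponin gene Cnn1. All 12 log2 fold changes were below 0, with a median of -0.34, and 5 had an unadjusted edgeR p under 0.05. The summed level of the 12 ran from 1290 to 1578 CPM in naive and from 1074 to 1378 CPM in injured lungs. Injured lungs lay wholly below naive ones for 4 of these 12 and for 4 of the 14 fibroblast markers. Of all genes tested, 50.2% had a log2 fold change below 0 and 16.7% an unadjusted edgeR p under 0.05. For 10.6%, injured lungs lay wholly below naive ones.

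Of 14 endothelial markers, edgeR, DESeq2 and limma-voom called 0, and 3 had an unadjusted edgeR p under 0.05. Without injured replicate 3, edgeR called 1 of them lower, Aplnr, the apelin receptor gene. Their median log2 fold change was -0.10, and their sum ran from 6332 to 6798 CPM in naive and from 5199 to 6415 CPM in injured lungs. Log2 fold changes of the 14 ran from -1.21 to 0.21, with 10 below 0 and 4 above. Over all genes tested, 50.2% lay below 0. Injured lungs lay wholly below naive ones for 4 of the 14, and for 10.6% of all genes tested. The 2 most abundant markers, Cdh5, the endothelial cadherin, and Pecam1, a junction protein, gave -0.23 ± 0.11 and -0.25 ± 0.097. Medians were also below 0 for markers of mesothelium (-0.37), airway epithelium (-0.20) and lymphocytes (-0.63), and that of alveolar epithelium was 0.0070. The part of cell numbers in the values of Foxf1 and Scube2 was not tested. No fibroblast, smooth muscle or endothelial marker was at 0 counts in any library.

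Of other cell types the lung holds, 8 of 10 neutrophil markers rose, with a median of 3.65 and sums from 59.8 to 94.1 CPM in naive against 638 to 1407 CPM in injured lungs. The count was 5 without naive replicate 1 or naive replicate 3. Ly6g rose by a log2 fold of 4.91 ± 0.61 (edgeR adjusted p = 0.00518). Of 10 macrophage and monocyte markers, 6 rose and 0 fell, with sums from 1039 to 1340.5 against 1818 to 1968 CPM, led by Itgam, an integrin of myeloid cells (log2 fold 2.19 ± 0.099, edgeR adjusted p = 2.14e-05). The count of rises was 2 without naive replicate 1, 3 without naive replicate 2, 4 without injured replicate 1 and 1 without injured replicate 2. Of 8 lymphocyte markers, 2 fell, Lef1 and Cd4, and 0 rose. Only Lef1 was called when any single library other than injured replicate 2 was left out. All 8 log2 fold changes were below 0, against 50.2% of all genes tested. The sums ran from 105 to 122 CPM in naive and from 85.9 to 90.2 CPM in injured lungs. Injured lungs lay wholly below naive ones for 6 of the 8, and for 10.6% of all genes tested. Epithelial cells, which make Shh, were represented by 10 alveolar markers, of which edgeR and limma-voom called 0, DESeq2 2 higher, and 3 had an unadjusted edgeR p under 0.05. Of 9 tested airway markers 1 fell, Tppp3 of ciliated cells (log2 fold -0.56 ± 0.11, edgeR adjusted p = 0.0312), a call kept among single libraries left out only without injured replicate 3. The alveolar sum ran from 27574 to 29828 CPM in naive and from 27739 to 29724 CPM in injured lungs. The part of incoming leukocyte RNA in the values of the 9 genes was not tested.

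The genes most like the members in pattern were sought by Pearson's r of log2 CPM over the 6 libraries, among 14218 other genes with a mean of at least 1 CPM. This is a description without a p-value, and for Scube2 and Foxf1 the libraries form the 2 groups, so that r mostly reflects the difference between them. It takes no account of the size of a difference, so log2 fold changes are given too. Closest to Scube2 were Col4a3 (0.998), Col4a6 (0.995) and Gucy1a3 (0.992), at -0.59 ± 0.11, -0.70 ± 0.12 and -0.40 ± 0.086. Closest to Foxf1 were Col12a1 (0.997), Dnm3 (0.997) and Rprd2 (0.996), at -0.90 ± 0.13, -0.35 ± 0.13 and -0.17 ± 0.082. Dnm3 and Rprd2 were not called (edgeR adjusted p = 0.207 and 0.342). Ptch1, whose groups overlap, was most like Wdr35 (0.991), Braf (0.991) and Rbl2 (0.990), at -0.09 ± 0.13, -0.09 ± 0.11 and -0.12 ± 0.11. Gli1 was most like Prkd3 (0.991), Kcnh7 (0.990) and Hmgxb3 (0.986), at -0.10 ± 0.081, -0.69 ± 0.33 and -0.12 ± 0.089.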

How the data were processed

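Per the labels' protocols, left lungs were stored in RNAlater, and a NEBNext Ultra II RNA kit and a NovaSeq instrument were used. The build mm10 and the tools STAR, STAR-Fusion, HTSeq, edgeR and DESeq2 appear in the submitters' processing notes; their versions, roles and strand settings are not given. Per the file headers, the authors deposited read counts per gene, FPKM values, normalized counts and their own log2 fold changes with p-values. The authors' signal columns (normalized counts) are the count columns over a library-wide constant, and the deposited FPKM values were recovered from counts, gene lengths and column totals, both within a relative tolerance of 1e-06. The authors' p-values were not used.

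Counts were filtered by edgeR's filterByExpr (15486 of 23194 genes kept), scaled by TMM and compared in R 4.3.3 with edgeR 4.0.16 by its quasi-likelihood F test (robust, two-sided), with Benjamini-Hochberg adjustment over the whole table. Calls are at an adjusted p under 0.05. The SE given with edgeR log2 fold changes is the absolute log2 fold change over the square root of the F statistic. DESeq2 1.42.0 and limma 3.58.1 served as alternatives. The procedure was tested on simulated data, where the share of false calls was above the nominal rate. CPM use the TMM-scaled library size. List genes were matched by symbol, or by Ensembl identifier through GENCODE M21 for 4 (Grk2, Mosmo, Adgre1 and Siglecf). Named in the text are all 9 members, the called genes of each list (at most 6, or 2 for marker lists), or its 2 most abundant where none was called; not every marker gene so chosen is printed. The members and lists were chosen with earlier results of these data known. Other settings tried were library size alone, median-of-ratios size factors, no filter, a filter of 1 CPM in 3 libraries, limma-voom, DESeq2, the replicate number as a block, and each library left out.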

Additional observations from a re-analysis of the deposited data

How the results depend on the processing

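The number of genes called was 482 with all libraries, 729 with no filter on low counts, 1002 by DESeq2, and 195 to 463 with 1 library left out, the lowest without naive replicate 2. The wider Hedgehog genes called numbered 3, against 6 with no filter, 7 by DESeq2 and 1 to 3 with 1 library left out; Sfrp1 was among them each time. The log2 fold changes of the 9 members moved by less than the spread between replicates under every alternative run. Those of Ptch1 and Gli3 still crossed 0 with 1 library left out. Leaving out 1 of 3 lungs can hardly move a group mean by more than that spread, so those runs were no test of stability. With the replicate number as a block 621 genes and 3 wider Hedgehog genes were called, and of the lymphocyte markers 1, Lef1, rather than 2. Same-numbered lungs deviated from their group means with correlations across genes of 0.0767, -0.0853 and 0.154, and naive replicate 1 correlated best with injured replicate 2 (0.282), so the numbers were not taken to pair the lungs. The number of lungs, 3 a group, limits the comparison for most members. The lowest counts per library among the 9, 95 to 305, were those of Shh, Gli1, Gli2 and Gli3.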

Other observations

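Markers of mesothelium, the surface lining of the lung, spread widely among the injured lungs. None of 5 was called by edgeR, DESeq2 or limma-voom, and 0 had an unadjusted edgeR p under 0.05. Their summed level was 315 to 389 CPM in naive lungs and 98.9 to 323 CPM in injured lungs. The most abundant were Msln, or mesothelin, at a log2 fold change of -0.68 ± 0.32 and Gpm6a at -0.37 ± 0.30 (edgeR adjusted p = 0.374 and 0.622).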
